A study of Mus musculus with 47 samples.

Results

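The uptake of 4-thiouridine (4sU) into mRNA was followed at D6 of neuronal differentiation in 15 of the 47 libraries of the study, chosen by their labels. They are the D6 anabolic libraries of time 0, 1, 3 and 9 (T0, T1, T3 and T9) and the D6 catabolic libraries of time 0, each with 3 replicates. P19 cells, a wild-type mouse embryonal carcinoma line, were kept for 6 days in NDiff 227 medium with 500 nM retinoic acid in every group. 4sU was used at 500 µM, and T0 libraries, of label time 0, give the background. The time 0 libraries of the catabolic assay serve as the 15 h reference. By the methods on labeling they had 15 h of 4sU, renewed 3 h before the end. The methods on the analysis give a shorter labeling time for them. The labels number the anabolic times 0, 1, 3 and 9, whereas the design text and the methods give 0, 3, 6 and 9 h. The times are therefore called by their labels, no rate per hour was computed, and label was expressed as a share of the 15 h reference. P19 cells are 1 clonal line, and the design text calls the replicates biological.

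In SLAM-seq, cells build 4sU in place of uridine into RNA made after its addition. Alkylation of the incorporated 4sU makes reverse transcriptase read it as cytosine, so that new RNA carries T>C conversions. A transcript pool that is replaced quickly fills with label early, and a pool that is replaced slowly fills late. Transcription factors, signaling inhibitors and immediate early genes are textbook cases of short-lived mRNA, and mRNAs of ribosomes, energy metabolism and the cytoskeleton of long-lived mRNA.

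The libraries were made from the 3′ ends of mRNA and counted over RefSeq 3′ UTRs of mm10. They held between 2240084 and 10743480 reads on 3′ UTRs of mRNA (NM) transcripts, with the fewest in T9 library 53 and in T1 library 40 (2639616). Neuronal markers were present, with 8 of 8 genes (such as *Tubb3*, *Dcx* and *Elavl3*) at a median of 1 CPM (reads scaled to the total on NM 3′ UTRs) or more and a summed level of 5568 to 7013 CPM. The 5 neural progenitor markers summed to 510 to 836 CPM. Of 6 markers of undifferentiated P19 cells, *Nanog*, *Zfp42* and *Dppa5a* were at 0 in every library and the sum did not exceed 4.91 CPM. *Gfap* and *Aqp4* of astrocytes and *Sox10* and *Mog* of oligodendrocytes were at 0 in every library, although *Mbp* reached 75 CPM. Mesoderm and muscle markers summed to at most 25.5 CPM and endoderm markers to at most 5.86 CPM.

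The conversion rate, T>C conversions per covered T position summed over all NM transcripts, was 0.158% ± 0.0288 (SD, n = 3) at T0, the background without label. It was 0.218% ± 0.0145 at T1, 1.98% ± 0.338 at T3, 3.62% ± 0.601 at T9 and 4.65% ± 0.351 in the 15 h reference (n = 3 each). The 3 T1 libraries held 0.223%, 0.229% and 0.202%, and each lay above the 3 T0 libraries with 0.162%, 0.185% and 0.128%. The T3 libraries held 2.06%, 2.26% and 1.61%, and the T9 libraries 4.16%, 2.97% and 3.74%. In this rate the groups did not overlap in any of the 7 pairs of time points compared. Each pair gave p = 0.1 (adjusted p = 0.1) in a two-sided exact permutation test, the smallest p that 3 against 3 libraries allow.

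**Figure D1:**
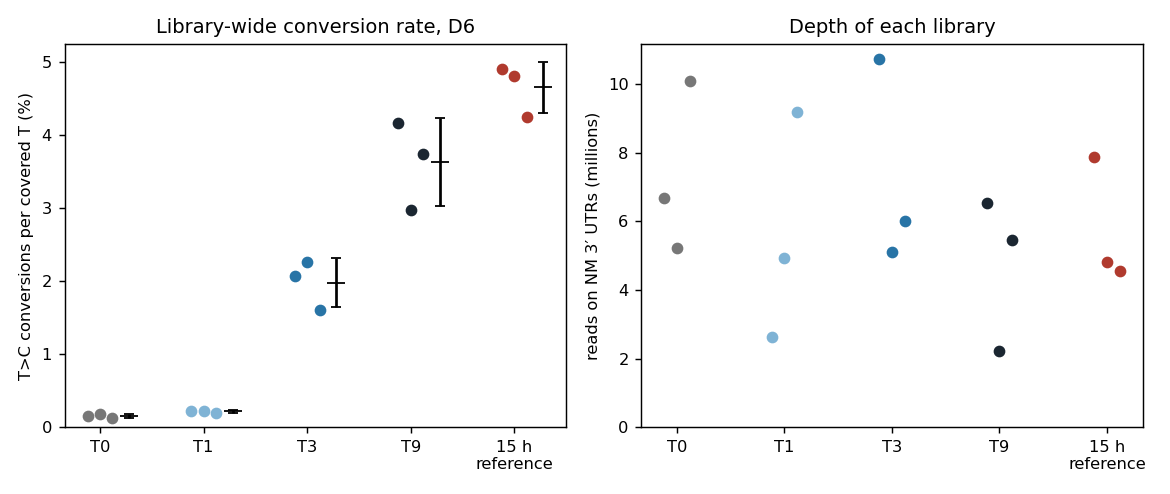
Conversion rate over all NM transcripts in percent (left, with mean and SD as bars) and reads on NM 3′ UTRs (right) of each of the 15 D6 libraries, by time point. The rate lies under 0.23% at T0 and T1 and climbs to 4.24% to 4.89% in the 15 h reference, and the T9 library with the fewest reads has the lowest rate of its group.

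After subtraction of the T0 rate, the T1 libraries had gained 1.44%, 1.59% and 0.974% of the label of the 15 h reference. The T3 libraries had gained 42.4%, 46.9% and 32.2%, and the T9 libraries 89.1%, 62.7% and 79.8%. T3 library 45 and T9 library 53 thus stood below the others of their group. In library 45 the median tested transcript had a rate of 0.0284%, against 1.91% and 2.20% in libraries 43 and 44. Across the 242 genes that averaged 50000 or more covered T positions, the order of rates in libraries 43 and 44 had a Spearman correlation of 0.904. The correlations of library 45 with them were 0.652 and 0.656. Library 45 held 6004629 reads, more than library 44 (5118232) and fewer than library 43 (10743480). Of the tested transcripts, 11775 had reads in library 45, against 13160 and 13143 in libraries 43 and 44. T1 library 40 (11634) and T9 library 53 (11413) were also the lowest of their groups in this number. Its relation to the rates was not tested, and genes of the same library are not independent.

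Which transcripts gained label first was tested as T1 against T0. The 13238 NM transcripts tested averaged 1000 or more covered T positions over the 15 libraries. Of them, 76 (0.574%) were higher at T1 (edgeR quasi-likelihood test, adjusted p under 0.05). They belong to 48 of 8374 genes, 0.573% of the genes tested, and no transcript was lower. In 42 of the 48 genes every T1 library lay above every T0 library, which 5.1% of all tested genes did. These genes were picked by a test on the same libraries, so that this separation is no further support. Transcripts with an unadjusted p under 0.05 numbered 2534, and DESeq2 called 1161 higher and 314 lower. The number depended on single libraries, from 24 without T0 library 37 to 161 without T1 library 42. In 32 of the 48 genes the highest T1 rate was that of library 40, the one with the fewest reads of its group.

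The 10 genes with the smallest p at T1 are described first. *Cyp26b1*, a retinoic acid-degrading enzyme, had rates of 0.0466%, 0.0280% and 0.0317% at T0 and of 0.243%, 0.289% and 0.339% at T1. All T1 libraries were thus over 5 times the highest T0 library, a log2 difference of 3.03 (SE 0.307, adjusted p = 9.59e-07, edgeR). *Sox11*, a transcription factor of immature neurons with its 3′ UTR at chr12:27334268-27341220 (minus strand), went from 0.122%, 0.123% and 0.0873% to 0.196%, 0.317% and 0.319%. The log2 difference of *Sox11* was 1.33 (SE 0.156, adjusted p = 1.56e-05, edgeR), and no T1 library overlapped with T0. The Hox factors *Hoxb3* and *Hoxb2*, which set position along the hindbrain and which retinoic acid induces, had T1 rates of 0.428% to 1.09% and 0.560% to 1.24%. Their T0 rates did not exceed 0.190% and 0.131%, and the log2 differences were 2.34 (SE 0.357) and 3.09 (SE 0.472), with adjusted p = 0.000419 each in edgeR. *Meis2*, a cofactor of Hox proteins, had at most 0.0130% at T0 and 0.452%, 0.137% and 0.215% at T1 (adjusted p = 6.41e-05, edgeR).

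The inhibitors of neurogenic bHLH factors *Id2* and *Id3* were called as well. *Id2* had rates of 0.0605%, 0.104% and 0.0782% at T0 and of 1.46%, 0.891% and 0.523% at T1 (adjusted p = 0.000419, edgeR). *Id3* rose from 0.0075%, 0.0165% and 0.0070% to 1.64%, 0.625% and 0.349% (adjusted p = 0.000263). Library 40 was the highest of T1 for both genes, and the lowest T1 library was still above every T0 library. The other genes with the smallest p were *Elavl1*, which encodes an RNA-binding protein of AU-rich elements, *Ppp2r2a*, a regulatory subunit of a phosphatase, and *Epha4*, an ephrin receptor. Their T1 rates were 0.139% to 0.754%, 0.146% to 0.364% and 0.210% to 1.14%, against at most 0.0262% at T0.

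Of the lists of functional groups, Hox genes had 3 of 21 tested members called at T1, AU-rich element binding and mRNA decay 3 of 28, Notch targets and Id genes 2 of 19, and proneural and neuronal transcription factors 2 of 27. Neural progenitor factors had 2 of 31 and synaptic and neuronal signaling genes 2 of 37. Immediate early genes, retinoic acid signaling, neuronal cytoskeleton, splicing factors and zinc finger Zfp genes had 1 each. The lists of ribosomal proteins (43 tested), translation factors (29), oxidative phosphorylation (71), mitochondrial ribosomal proteins (68), glycolysis (19), proteasome (31), chaperones (29), cell cycle (42), cholesterol synthesis (24) and p53 targets (12) had none. At a background of 0.573%, fewer than 1 call would fall on each list if calls fell evenly on all tested genes. Calls were concentrated in well covered genes, however. Of the 48 called genes, 44 were among the 2144 used for shares below, with 10000 or more covered T positions. Of the tested Hox genes 15 of 21 were among these 2144, and of the mitochondrial ribosomal proteins 13 of 68. The calls of a list thus also depend on its coverage.

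A gain at T1 could be small or uneven. *Tubb5*, a β-tubulin with a mean of 969297 covered T positions, had 0.0444%, 0.0948% and 0.0763% at T1 and at most 0.0392% at T0 (adjusted p = 0.00726, edgeR). Against its own label at 15 h these T1 rates amounted to 0.257%, 1.33% and 0.937%. *Ctnnb1*, which encodes β-catenin, had 0.340% in library 40 and 0.0565% and 0.0423% in the others. *Uba2*, a SUMO-activating enzyme subunit called after 7.70% in library 40, had 0% and 0.0310% in libraries 41 and 42 and 0% in every T0 library.

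At T3, 8091 transcripts (61.1%) were higher than at T0 and 22 (0.166%) lower, and at T9 9272 (70%) and 6 (0.0453%) by the edgeR quasi-likelihood test. In genes, 60.6% of those tested were higher at T3 and 0.131% lower, and 69.4% and 0.0478% at T9. Ribosomal protein genes were called higher in 15 of 43 at T3 and in 33 of 43 at T9. Oxidative phosphorylation had 41 of 71 at T3 and 58 of 71 at T9. Hox genes had 20 of 21 at both times and retinoic acid signaling 11 of 12 and then 12 of 12. These calls also depend on coverage, which differs between genes.

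For the order of genes in label, the share of the 15 h label was computed for 2144 genes that averaged 10000 or more covered T positions and had a 15 h rate of at least 3 times the T0 rate. Across these genes, the rates of libraries 43 and 44 had a Spearman correlation of 0.662, and those of library 45 with them 0.234 and 0.259. Pairs of T9 libraries had 0.148 to 0.214, and pairs of reference libraries 0.236 to 0.289. In the 242 best covered genes the reference libraries had 0.318 to 0.510. The order of single genes thus differed much between libraries. The median share was 0.597% at T1, 38.8% at T3 and 74.8% at T9. At T3, 10% of the genes lay under 15.2% and 10% over 71%, and at T9 these limits were 45.9% and 107%. A share can exceed 100%, as it did in all 3 libraries for 5 genes at T3 and for 46 at T9. In each library the gene was also set against the share of all NM transcripts together. At T1, 108 genes (5.04%) were above it in all 3 libraries and 743 (34.7%) below it in all 3. At T3, 386 genes (18%) were above it in all 3 libraries and 626 (29.2%) below it in all 3.

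**Figure D2:**
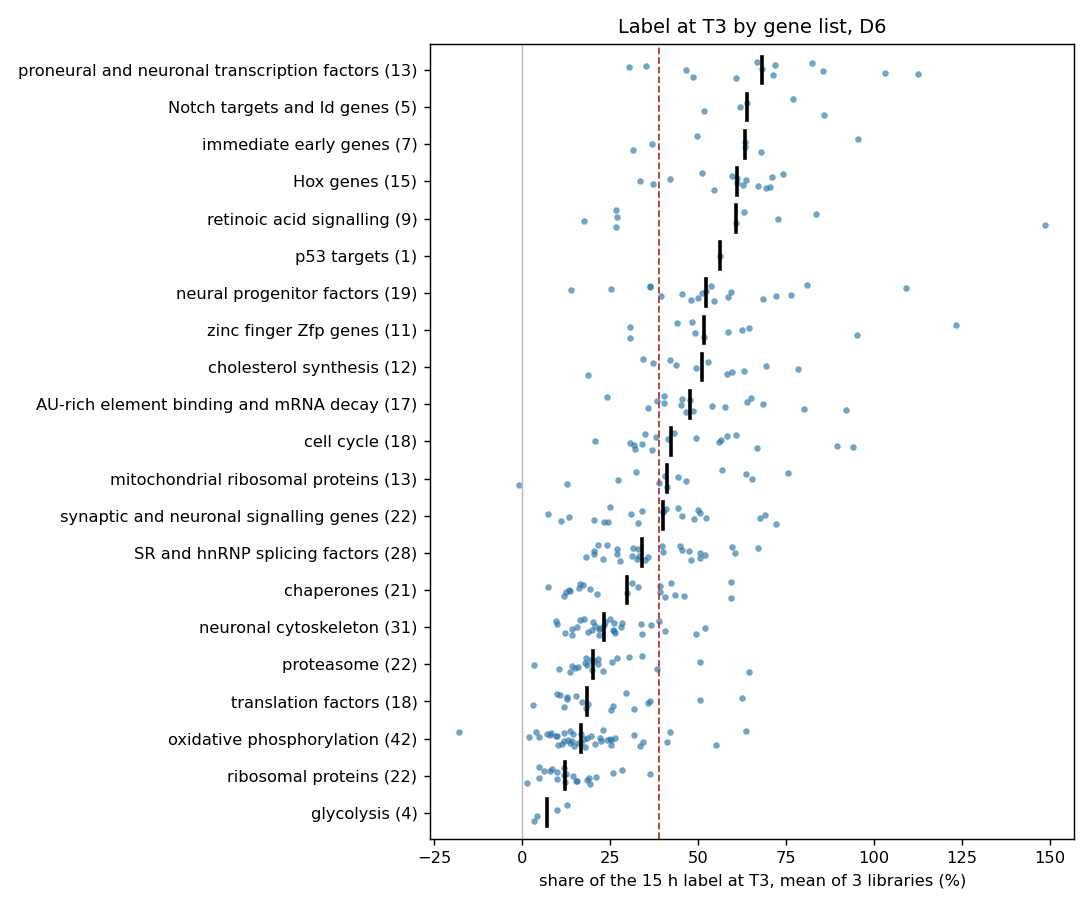
Share of the 15 h label at T3 in percent for each gene of 21 functional lists with enough coverage (points, mean of 3 libraries; number of genes in brackets), with the median of each list (black bar) and of all 2144 genes (dashed line, 38.8%). Proneural factors, Notch targets and Id genes, immediate early genes, Hox genes and retinoic acid signaling have medians over 60%, neural progenitor factors and Zfp genes 52.2% and 51.8%, and ribosomal proteins and glycolysis under 13%.

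Lists of regulators had high shares at T3. Proneural and neuronal transcription factors had a median share of 68.2%, with 8 of 13 genes above the share of all transcripts in all 3 libraries and none below, against 18% and 29.2% of all genes. *Sox11* had shares of 66.1%, 68.8% and 65.6% at T3, close together, and of 93.5%, 78.6% and 89.3% at T9. *Sox4*, its close relative, had 45.5%, 64.7% and 72.2% at T3. *Neurog2*, a proneural bHLH factor, spread from 53.2% to 171%, and *Sox12* from 1.95% to 64.2%, so that neither could be placed. Per library the list's median was 64.9%, 70.8% and 48.7%, above that of all genes (41.1%, 46.4% and 19%) in each.

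Notch targets and Id genes had a median of 63.9%, with 5 of 5 genes above in all 3 libraries. *Id2* had 65%, 67.4% and 59.4%, and *Id3* 89.3%, 73.4% and 68.5%. *Hes5*, a repressor that Notch induces, had 56%, 108% and 92.9%. *Notch1* itself, the receptor, had the lowest mean share of the list with 43.6%, 54% and 57.2%. At T9 *Id2* lay between 63.2% and 108% and *Id3* between 73.7% and 108%, ranges that overlapped with those of T3.

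Immediate early genes had a median of 63.3%, with 4 of 7 above and none below. *Gadd45g*, a stress-response gene of the p53 and MAPK pathways, had 55.8%, 55% and 79.4%, and *Jund*, an AP-1 subunit, 63.9%, 89.1% and 37%. *Klf6*, a zinc finger factor, had the lowest mean share of the list and was uneven, with 31.3%, 56.9% and 6.48%. Of the 41 names of the list, 18 were tested and 7 had enough coverage, so that most of these genes could not be placed. The study's *Myc* had a mean of only 367 covered T positions and was not tested.

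Hox genes had a median of 61.1%, with 10 of 15 above and none below. *Hoxb3* had 76.3%, 73.4% and 63.4% and *Hoxb4* 70.7%, 83.7% and 68.3%. *Hoxb8* and *Hoxb9*, which lie closer to the 5′ end of the same cluster, had 49.5%, 49.8% and 26.4% and 48.7%, 44.7% and 7.28%. In each of the 3 libraries *Hoxb3* and *Hoxb4* were above *Hoxb8* and *Hoxb9*, a pattern seen after the values were known.

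Retinoic acid signaling was divided, with a median of 60.8%, 4 of 9 genes above and 3 below. The degrading enzymes had high shares. *Cyp26a1* spread widely, with 90.6%, 138% and 218%, and *Cyp26b1* had 54.3%, 62.4% and 72.5%. Among neural progenitor factors (median 52.2%, 10 of 19 above and 2 below), *Sox9* had 85.5%, 87.0% and 70.7% and *Irx3* 89.4%, 73.2% and 165%. *Vim* and *Fabp7*, which encode an intermediate filament and a fatty acid carrier and not transcription factors, had 23.3% to 26.1% and 2.54% to 21.2%.

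Further lists lay above the middle at T3. Zinc finger Zfp genes had a median of 51.8% (5 of 11 above, none below) and cholesterol synthesis 51.1% (4 of 12 above, 1 below). *Zfp462* had 63.2%, 80.0% and 44.4%. *Hmgcs1*, which makes HMG-CoA, had 37.2%, 48.2% and 45.8%, and *Scd2*, a desaturase, 49.6%, 50.4% and 48.4%. AU-rich element binding and mRNA decay had a median of 47.7% (5 of 17 above, 1 below), with *Cnot6*, a deadenylase, at 64.9%, 68.6% and 71.8% and *Hnrnpd*, which binds AU-rich elements, at 23.5%, 16.6% and 31.7%. The only p53 target with enough coverage, *Mdm2*, had 76.5%, 63.8% and 28.7%.

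Cell cycle (median 42.3%, 5 above and 3 below of 18), mitochondrial ribosomal proteins (41.02%, 2 and 2 of 13), synaptic and neuronal signaling genes (39.99%, 4 and 6 of 22) and splicing factors (34.1%, 4 and 9 of 28) lay near the median of all genes. Within the cell cycle, the mitotic genes *Cdc20* and *Top2a* had 85.6% to 107% and 58.2% to 79.3%, and the replication helicase subunit *Mcm5* 9.85% to 27.2%. Among synaptic genes, the adhesion molecule *Ncam1* had 19% to 26.5% and the RNA-binding protein *Elavl3* 34.6% to 46.3%. *Map2*, a dendritic microtubule-associated protein, had 34.7%, 33.3% and 41.6%, and *Larp1*, which binds mRNAs with terminal oligopyrimidine tracts, 47.9%, 48.6% and 54.7%.

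The lists with the lowest shares at T3 were glycolysis, ribosomal proteins, oxidative phosphorylation, translation factors, the proteasome and the neuronal cytoskeleton. Glycolysis had the lowest median, 6.93%, with 4 of 4 genes below the share of all transcripts in all 3 libraries. Of the 24 names of the list, 19 were tested and only these 4 had enough coverage. Per library the list's median was 13.2%, 5.89% and -1.01%, the last under background. *Pkm*, pyruvate kinase, had 8.45%, 11.7% and 9.05% at T3 and 85.3%, 81.0% and 91.1% at T9. *Gpi1*, the second enzyme of the pathway, had 12.2%, 0.0463% and 0.0788% at T3 and was still at 31.2%, 43.3% and 29.8% at T9. Ribosomal proteins had a median of 12.3% with 20 of 22 below and none above, and at T9 of 55.2%, against 74.8% for all genes. *Rps9* had 7.98%, 5.77% and 4.58% at T3 and 39.9%, 15.7% and 52.1% at T9. *Rpl4* had 22.3%, 12% and 2.87% at T3 and 63.3%, 59.2% and 68.2% at T9. *Rps20* was the exception in spread, with 73.5% in library 43 and 8.17% and 27.3% in the others. Per library the list's median at T3 was 12.4%, 13.7% and 5.47%.

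Oxidative phosphorylation had a median of 16.7% with 30 of 42 genes below and none above. *Atp5j2*, a subunit of ATP synthase, had 13.7%, 16.1% and 6.11%, and *Cox6b1* of cytochrome c oxidase had 9.14%, 4.36% and -1.62%, the last of which is a rate under background. *Ndufs1*, a complex I subunit, had the highest mean share of the list, from 88.4%, 21.2% and 81.2%. Translation factors (median 18.3%, 12 below and 1 above of 18) held *Eef2*, the translocase of elongation, at 16.5%, 17.1% and 4.73%. The proteasome (median 20.1%, 16 below and none above of 22) held *Psmd4* at 22.2%, 16.2% and 26.2%. Chaperones had a median of 29.6% (10 below and 2 above of 21). Their best covered gene *Hsp90ab1* had 16.6%, 16.9% and 24.1%, and *Atf4*, a stress transcription factor in that list, 67.0%, 71.1% and 40.1%.

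The neuronal cytoskeleton had a median of 23.3% with 22 of 31 genes below in all 3 libraries and 1 above. *Tubb2b*, a β-tubulin of neurons (3′ UTR at chr13:34127008-34127470, minus strand), had rates of 0.755%, 0.805% and 0.590% at T3 and of 3.84%, 4.05% and 3.44% in the reference. It had taken up 18.7%, 20.04% and 14.3% of its 15 h label at T3. *Tubb2b* was the only transcript called in the test of T3 against the reference, in which the rate of each library is divided by that of all its NM transcripts. Its log2 difference was -1.16 (SE 0.175, adjusted p = 0.00407, edgeR), and 1 late call is 0.00755% of the transcripts and 0.0119% of the genes tested. The call was lost without any one of the 3 T3 libraries. *Marcks*, an actin-binding substrate of protein kinase C, had the highest mean share of the list with 54.2%, 49.5% and 52.2%, and *Stmn3*, a stathmin, the lowest with 3.76%, 14.3% and 10.2%.

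No transcript was called early at T3. Transcripts with an unadjusted p under 0.05 numbered 469, and DESeq2 called 1 early and 4 late. The median log2 difference of all genes was 0.01. Data were simulated with the spread of all 15 libraries, and only transcripts with a mean of 10000 or more covered T positions were changed. In them, the test of T3 against the reference called 0 of 50 transcripts changed 4-fold. It called 10 of 50 changed 16-fold, so that few calls do not show a lack of differences. In a fit of only the 9 labeled libraries of T3, T9 and the reference, added after the data had been seen, 4 transcripts were early and 16 late, in 3 (0.0358%) and 7 (0.0836%) genes. The early genes were *Sox9* (log2 difference 0.95, adjusted p = 0.0115), *Hoxb3* (0.77, adjusted p = 0.0449) and *Sox11* (0.69, adjusted p = 0.0154, all edgeR). The late genes were *Tubb2b*, *Tubb5* and *Tuba1a* of microtubules, *Actb* of actin filaments, *Nnat*, a membrane proteolipid of neurons, *Pkm*, and *Rtn3*, a reticulon of the endoplasmic reticulum. Their differences ran from -0.66 (*Actb*) to -1.98 (*Pkm*).

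**Figure D3:**
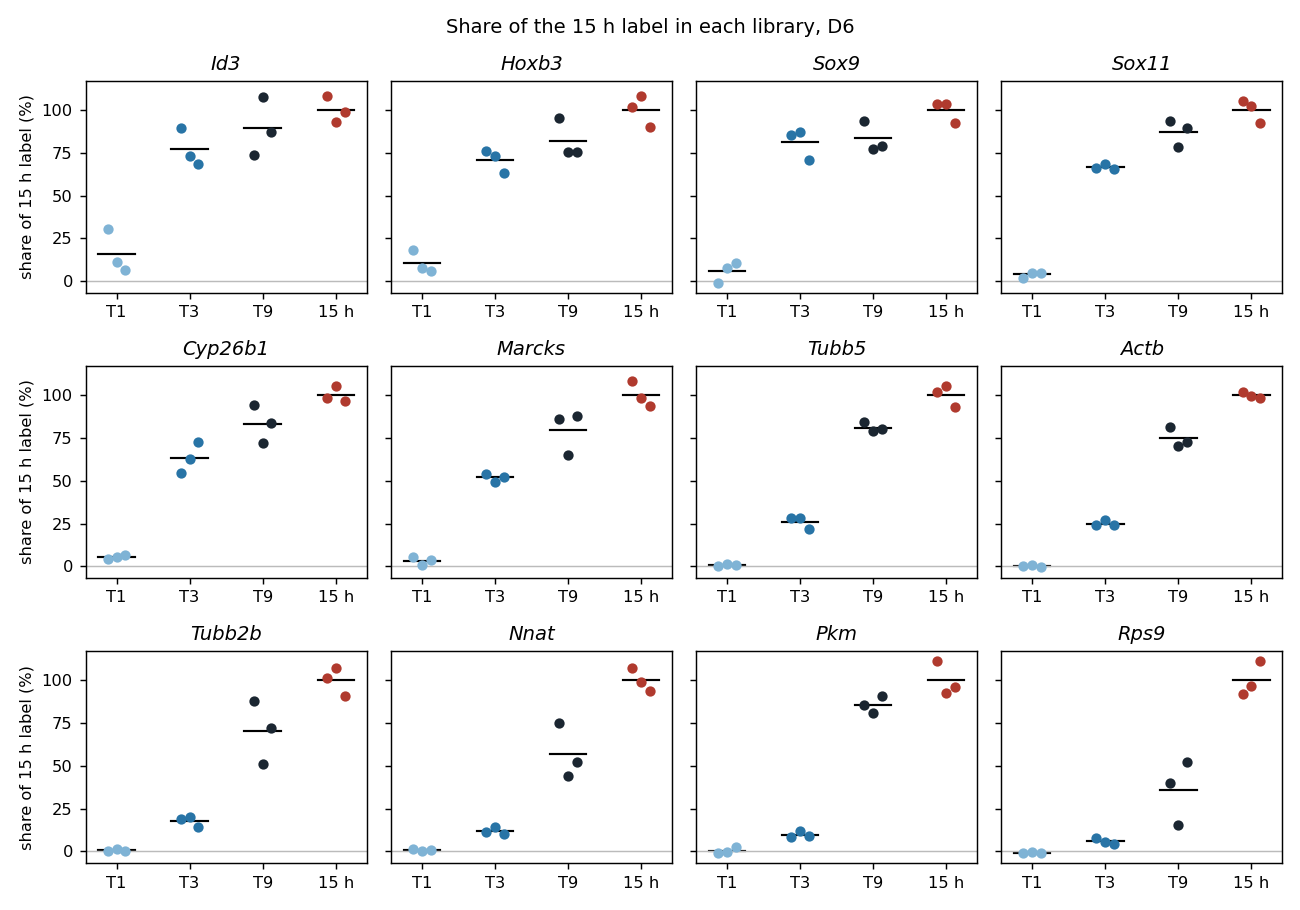
Share of the 15 h label in percent for 12 genes in each of the 3 libraries at T1, T3, T9 and in the 15 h reference (points; bars are means). *Id3*, *Hoxb3*, *Sox9*, *Sox11*, *Cyp26b1* and *Marcks* lie over 49% at T3 in every library, and *Tubb5*, *Actb*, *Tubb2b*, *Nnat*, *Pkm* and *Rps9* under 29%.

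No transcript was called against the reference at T9 (edgeR, 429 with an unadjusted p under 0.05; DESeq2 called 1 early and 6 late). At T9, 262 of 2144 genes (12.2%) were above the share of all transcripts in all 3 libraries and 410 (19.1%) below. Ribosomal proteins had 12 of 22 genes below and none above, with a median of 55.2%, and translation factors 9 of 18 below and 1 above, with a median of 53.9%. Oxidative phosphorylation had 13 of 42 below and 5 above, and its median of 70.3% was close to the 74.8% of all genes. Neuronal cytoskeleton, with a median of 23.3% at T3, had a median of 74.8% at T9, as did all genes, with 8 of 31 below and 5 above. Across the 242 best covered genes the T9 libraries' rates had Spearman correlations of 0.292 to 0.479 with each other, and the lowest 2 involved library 53.

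Between T3 and T9 every T9 library was above every T3 library in 788 of 2144 genes (36.8%), and below in 5 (0.233%). The test of T9 against T3 called 9 transcripts (0.068%) of 7 genes (0.0836%) higher and none lower, with 741 transcripts at an unadjusted p under 0.05. The 7 genes averaged 149513 to 1365320 covered T positions and were named after their values were seen. Among them were *Tubb2b*, *Tubb5*, *Actb*, *Hsp90ab1*, *Basp1*, a growth cone protein, and *Rtn1*, a reticulon of neurons. *Tubb2b* went to 3.33%, 1.95% and 2.73% at T9, a log2 difference of 1.90 (SE 0.212, adjusted p = 7.33e-06, edgeR), and *Tubb5* from 1.35%, 1.36% and 1.07% to 3.99%, 3.73% and 3.78% (1.61, SE 0.217). *Actb* had 1.27%, 1.39% and 1.26% at T3 and 4.02%, 3.49% and 3.61% at T9 (1.505, SE 0.207). The number fell to 5 when reference library 7 or 9, T0 library 37 or 38, T1 library 41, or any T3 or T9 library was left out, and was 27 without T1 library 40.

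The share at T3 was compared with features of the 3′ UTR. Across the 2144 genes, the share at T3 had a Spearman correlation of 0.378 with 3′ UTR length, 0.037 with the T content of the 3′ UTR, -0.110 with coverage and -0.103 with the 15 h rate. Over all 13238 tested transcripts the log2 difference of T3 from the reference had a lower correlation of 0.188 with 3′ UTR length, and of 0.194 with 1 transcript per cluster of overlapping 3′ UTRs. The points share libraries, and no p is given. The median 3′ UTR of the measured ribosomal protein genes was 70.5 bases long, of oxidative phosphorylation 166 and of the proteasome 251, and of proneural and neuronal transcription factors 2700. Length did not order all lists, since retinoic acid signaling had 426 bases and Notch targets and Id genes 696, against 1304 for all genes.

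The 3′ UTRs were also searched for a pair of motifs that decay factors bind. The AU-rich nonamer TTATTTATT is bound by ZFP36 proteins, which recruit deadenylases, and TGTANATA by Pumilio proteins. A sequence was found for 1902 of the 2144 genes, on the transcript strand of GENCODE vM21 exons of mm10, and matches may overlap. The nonamer was in 148 of 1902 3′ UTRs (7.78%). Ordered by share at T3, the lowest 10% of genes had it in 4 of 191 (2.09%) and the highest 10% in 33 of 190 (17.4%). TGTANATA was in 30.3% of all, in 11.5% of the lowest 10% and in 42.1% of the highest. The median length was 386 bases in the lowest 10% and 1576 in the highest. In 3′ UTRs of 1000 to 2000 bases, the median share at T3 was 51.6% in 36 genes with the nonamer and 41.6% in 477 without. Under 1000 bases it was 39% in 24 genes and 28.4% in 760, and over 2000 bases 53.5% in 88 and 44.3% in 517. For TGTANATA the medians were 41.1% in 93 genes with it and 27.6% in 691 without under 1000 bases. They were 43.4% in 151 and 41.9% in 362 between 1000 and 2000 bases, and 47.98% in 333 and 40.95% in 272 over 2000 bases. The classes did not make lengths equal. Under 1000 bases the median 3′ UTR had 548.5 bases with the nonamer and 422 without, and over 2000 bases 3837.5 and 3055. For TGTANATA these lengths were 598 and 405, and 3501 and 2728. Between 1000 and 2000 bases they were closer, with 1498.5 and 1468 for the nonamer and 1436 and 1485 for TGTANATA. A match is a description of the sequence, and binding was not measured.

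**Figure D4:**
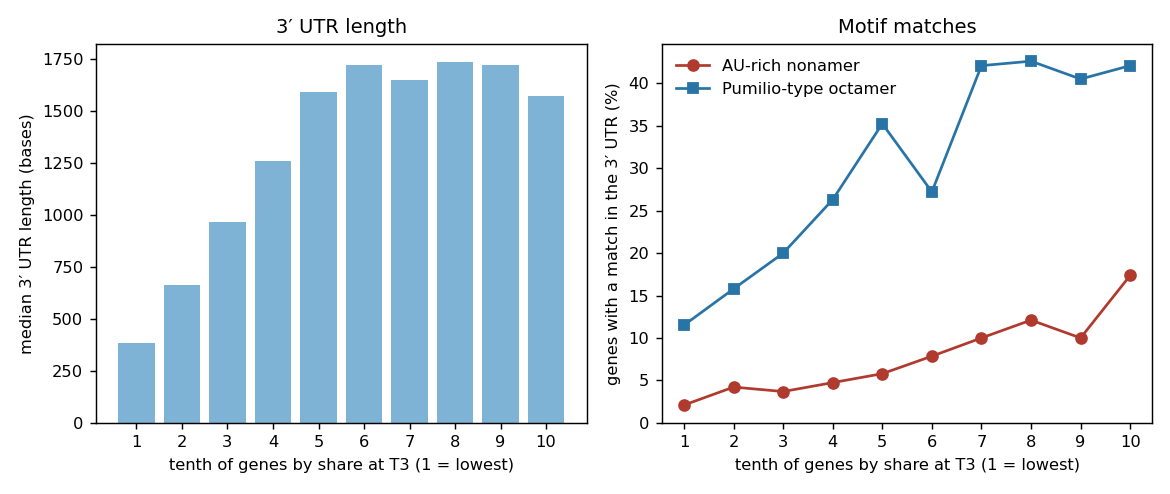
Median 3′ UTR length in bases (left) and percent of genes whose 3′ UTR matches the AU-rich nonamer or the Pumilio-type octamer (right) in 10 groups of 190 or 191 genes ordered by share of the 15 h label at T3. Length rises over the first 6 groups and then stays between 1576 and 1738 bases, and the nonamer reaches 17.4% in the last group.

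The first nonamer of some genes described above is shown with 9 bases on each side, 5′ to 3′, the match in capitals, for genes with a high or middle mean share at T3 and for a gene with a low one that also holds it. The sequences are from the transcript sequences of GENCODE vM21 on mm10. *Sox9* (chr11:112786750-112786776, plus strand), *Sox11* (chr12:27335427-27335453, minus), *Hoxb2* (chr11:96353914-96353940, plus), *Elavl4* (chr4:110204986-110205012, minus) and *Mdm2* (chr10:117688916-117688942, minus) had mean shares of 81.1%, 66.8%, 62.7%, 72.3% and 56.3% at T3. *Rab3a* (chr8:70758150-70758176, plus), a GTPase of synaptic vesicles, holds 2 matches and had shares of 20.4%, 1.40% and -0.0792%.
Sox9: gtgctaaaaTTATTTATTttgtaagga
Sox11: aattaagcaTTATTTATTgaaaactat
Hoxb2: gattgtagaTTATTTATTaaaattgtt
Elavl4: ttgaaacacTTATTTATTtaattgcag
Mdm2: gcattgatgTTATTTATTtgcaaataa
Rab3a: tgtagctatTTATTTATTtattgagga

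Some transcripts carried conversions without label. Of the 13238 tested, 1305 had a T0 rate of at least 0.5%. The highest among the well covered were *Slc25a39* (3.92%, 3.59% and 4.18% at T0), *Alyref2* (3.86%, 3.65% and 3.35%), *D8Ertd738e*, *Elob* and *Cpe*. At T3 *Slc25a39* had 4.04%, 4.61% and 4.76%, close to its T0 rates. No share was given for these 5, and which bases convert was not tested.

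Read levels gave no call over the same course. Of 16616 transcripts, 0 differed in reads between T9 and T0 (0%, edgeR quasi-likelihood test, 614 with an unadjusted p under 0.05; DESeq2 called 5 higher and 11 lower). Reads of *Tubb2b* differed by a log2 of -0.67 and of *Sox11* by -0.23, with adjusted p = 1 for both in edgeR. In bulk RNA, fewer cells of a type and less RNA per cell cannot be told apart. Label is a rate per covered T position and averages over all cells of a library, which may differ.

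The D0 course, with cells before differentiation and 20 µM 4sU, had a lower rate of 0.540% to 0.565% at T3 and of 1.38% to 1.49% in its own 15 h reference. As a share, the D0 libraries of T3 had gained 29.95% to 31.95%. For 1651 genes covered in both states, the median share at T3 was 37.9% at D6 and 26.8% at D0, and the order of genes had a Spearman correlation of 0.539. Ribosomal proteins were low in both (12.1% and 15.3%, 18 genes), as was oxidative phosphorylation (16.5% and 13%, 37 genes). AU-rich element binding and mRNA decay had 47.7% and 40.4% in 17 genes. Besides ribosomal proteins, 5 lists had a higher median at D0, against the order of all genes. These were immediate early genes (63.3% at D6 and 97.4% at D0, 5 genes), Notch targets and Id genes (70.5% and 76.7%, 2 genes), Zfp genes (50.5% and 55.6%, 6 genes), glycolysis (6.93% and 11.6%, 4 genes) and the p53 target *Mdm2* (56.3% and 67.3%). The test of D6 against D0 at T3 relative to each reference called 0 of 14310 transcripts (0%, edgeR, 1017 with an unadjusted p under 0.05), whereas DESeq2 called 18 higher and 73 lower at D6. The dose of 4sU differs between the states and cannot be told apart from them.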

How the data were processed

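SLAM-seq libraries were prepared by the authors with QuantSeq 3′ kits and quantified with SLAMdunk 0.3.3 (mm10, 3′ UTR intervals, polymorphisms masked), per the file headers and methods. The deposited files hold counts of reads, covered T positions, T>C conversions and converted reads per interval. The deposited conversion rate (a fraction) and CPM were not used, and CPM of markers was recomputed from the reads. Counts were summed over the intervals of each of 28190 NM transcripts, of which 28059 have a symbol. Transcripts with overlapping 3′ UTRs share counts. Reads have no molecular identifiers, so that only replicate error was used.

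Conversions were tested with edgeR 4.0.16 in R 4.3.3 (quasi-likelihood, two-sided, Benjamini-Hochberg) on the 15 libraries together, with log covered T positions as offset, plus the log library-wide rate for tests against the reference. Inclusion required a mean of 1000 covered T positions. DESeq2 1.42.0 and limma 3.58.1 were alternatives. Scripts used Python 3.11.15, numpy 2.4.6, pandas 2.3.3 and scipy 1.17.1, and were tested on simulated data. Between 11413 and 13160 of the tested transcripts had reads in a library. Replicates are biological per the design text. 

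The share of the 15 h label is the rate minus the mean T0 rate, divided by the same difference of the mean reference, and needed 10000 covered T positions. Each gene is given by its best covered transcript. The members and the 21 lists were chosen with earlier results of these data known. Named genes are the 10 smallest p at T1, the called transcripts at T3 and T9, in each list the 2 best covered and those with the highest and lowest difference at T3, among genes with a share, genes the study names, and the 5 highest T0 rates. *Uba2*, *Ctnnb1*, *Tubb5* at T1, *Elavl4* and the genes of T9 against T3 and of the added fit were named after their values were seen. Some genes that the rule names are not reported here.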

Additional observations from a re-analysis of the deposited data

How the results depend on the processing

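No paired analysis was possible because the library numbers run on through the study and no number recurs in another group. At T1, 1475 transcripts were called by DESeq2, 130 with at least 5000 and 143 with at least 20000 covered T positions (added later), 50 with 1 transcript per cluster of overlapping 3′ UTRs, and 20 with the 6 libraries of T0 and T1 alone (added later), against 76. Leaving out a library gave 24 to 161, and all but the omission of T1 library 40 (87) moved the number over 1.5 times: 50, 49 and 38 without reference libraries 7, 8 and 9, 24, 40 and 33 without T0 libraries 37, 38 and 39, 136 and 161 without T1 libraries 41 and 42, 39, 35 and 145 without T3 libraries 43, 44 and 45, and 42, 47 and 43 without T9 libraries 52, 53 and 54. All 76 stayed higher at T1 in each of these fits that held them, and 19 of 76 were still called without T0 library 37. Fewer transcripts were tested at 5000 positions and with 1 transcript per cluster, which gave 4745 and 5090 calls at T3 (8113 in the report, 5431 to 8559 without a library) and 5505 and 5835 at T9 (9278, and 7351 to 9590). T9 against T3 gave 29 with DESeq2, 22 at 5000 positions and 5 with converted reads, against 9, and 5 to 27 without a library (27 without T1 library 40). T3 against the reference gave 5 with DESeq2, 0 with median scaling, 0 with limma, 18 without scaling and 20 with the 9 labeled libraries, against 1, and 0 to 3 without a library (3 without T1 library 40, 0 without T3 library 43, 44 or 45). T9 against the reference gave 7 with DESeq2, and 0 without any single library. The comparison with D0 gave 91 with DESeq2, and 0 to 18 without a library (13 without D0 reference library 25, 18 without T3 library 44, and 1 without T3 library 45 or T9 library 53). Reads at T9 against T0 gave 16 with DESeq2 and 8 without a filter, and 0 without any single library. The causes of these changes were not tested. The median share at T1 was 2.68% without background subtraction and 1.34% over all transcripts summed, against 0.597%, and 0.0754% (without T1 library 41) to 0.918% (without T0 library 38) with a library left out. At T3 and T9 it ran from 32.3% to 44.6% and from 65.7% to 84.2% without a library. The conversion rate without a library was 0.145% to 0.173% at T0, 0.212% to 0.226% at T1, 1.83% to 2.16% at T3, 3.36% to 3.95% at T9 and 4.52% to 4.85% in the reference. As converted reads per read the rates were 3.74%, 4.85%, 31.4%, 51.2% and 60.2% in that order, and as the median over transcripts 0.00545%, 0.0126%, 1.38%, 2.75% and 4.28%. Converted reads per read, which count a read once, moved the T3 median of 12 of 21 lists and the T3 share of 53 of 124 named genes by more than the spread between libraries. Direction was followed only for the 76 transcripts called at T1, none of which turned lower. The correlation of early label with 3′ UTR length was 0.188 over all transcripts, 0.281 at 5000 positions and 0.194 with 1 transcript per cluster.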
